A study of Caenorhabditis elegans with 6 samples.

Results

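The insulin-like peptides and the insulin/DAF-16 pathway were examined in whole Caenorhabditis elegans carrying atfs-1(et18), set against wild-type N2 worms. The pathway was taken as every probe set whose single annotated gene symbol is ins- with a number, daf-28, a gene of the receptor-to-FOXO cascade (daf-2, age-1, pdk-1, akt-1, akt-2, sgk-1, daf-16 and 1 more) or one of dod-3, lea-1 and scl-1. This gave 55 probe sets for 35 genes, out of 22548 probe sets and 17118 named genes on the array, made up of 24 insulin-like genes, 8 cascade genes and 3 genes regulated by DAF-16. There were 3 arrays of atfs-1(et18) worms and 3 arrays of wild-type N2 worms, each from a sample labelled as a biological replicate. Worms of both genotypes were bleach-synchronised, grown on solid plates, fed Escherichia coli OP50 and collected at the fourth larval stage (L4). ATFS-1, a bZIP factor, drives the mitochondrial unfolded protein response. The et18 allele is known as a gain-of-function point mutation. One allele was measured, with no second allele or reverted strain beside it, and RNA came from all tissues together.

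In C. elegans, insulin-like peptides are secreted, largely by neurons and the intestine, and bind DAF-2, the only insulin/IGF-1 receptor of the worm. DAF-2 signals through the phosphoinositide 3-kinase AGE-1 and the kinases PDK-1, AKT-1, AKT-2 and SGK-1 to keep the FOXO transcription factor DAF-16 out of the nucleus. The pathway is known for its control of dauer entry, lifespan and stress resistance, and much of its control acts on protein location and not on transcript level.

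The deposited values are linear signals of the MAS5 method, 1 per probe set, scaled to a trimmed mean of 500.2 on each array, with medians between 111.1 and 137.6. Probe sets were tested where 3 or more of the 6 arrays gave a signal over the 40th percentile of that array. The arrays of 1 genotype correlated at 0.937 to 0.973 across the tested probe sets, and arrays of different genotypes at 0.895 to 0.941. Signals of different probe sets are not compared with each other, since each probe set binds with its own efficiency. With 3 arrays a genotype, the precision is limited by their number. The atfs-1 transcript had signals of 346, 355 and 289 in atfs-1(et18) worms and 207, 284 and 277 in wild-type worms, and since et18 is a point mutation this level does not check the labels. Markers of neurons, intestine, body wall muscle, hypodermis, germline and sperm were measured on these arrays (between 8 and 14 genes tested of each list), as whole worms should hold them all. The summed signal of 14 germline markers was 13120 to 17300 in atfs-1(et18) and 10010 to 20250 in wild-type worms, highest in wild-type replicate 1 and atfs-1(et18) replicate 3.

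Across the pathway, 3 probe sets, each of another gene, rose in atfs-1(et18) worms and 0 fell. The DAF-16-regulated gene dod-3 rose 5.03-fold, the insulin-like peptide gene ins-35 rose 2.60-fold, and 1 probe set of lea-1, which encodes a late embryogenesis abundant protein linked to desiccation tolerance, rose 2.80-fold. No cascade gene passed the threshold. The 3 DAF-16-regulated genes, with 7 tested probe sets, gave 2 of the 3 calls. The members were chosen with earlier results of these data known, so their counts beside array-wide shares are a description and not a test. Of the 55 probe sets 32 were tested, for 21 of the 35 genes. Of these 32, 3 passed an adjusted p of 0.05 upward and 0 downward (limma, Benjamini-Hochberg over all 13792 tested probe sets), where 2.63% of all tested probe sets passed upward and 1.3% downward (3.93% in either direction). At an unadjusted p under 0.05 the counts were 7 upward and 2 downward, against 17.2% of all tested probe sets in either direction. The median log2 change of the 32 was -0.09, beside -0.01 over all tested probe sets. All 3 atfs-1(et18) arrays lay above all 3 wild-type arrays for 7 of the 32 and below them for 2, where this held for 12.5% and 10.8% of all tested probe sets (23.3% in either direction). These 7 were the same probe sets as the 7 upward at an unadjusted limma p under 0.05, and some of them share a gene.

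**Figure D1:**
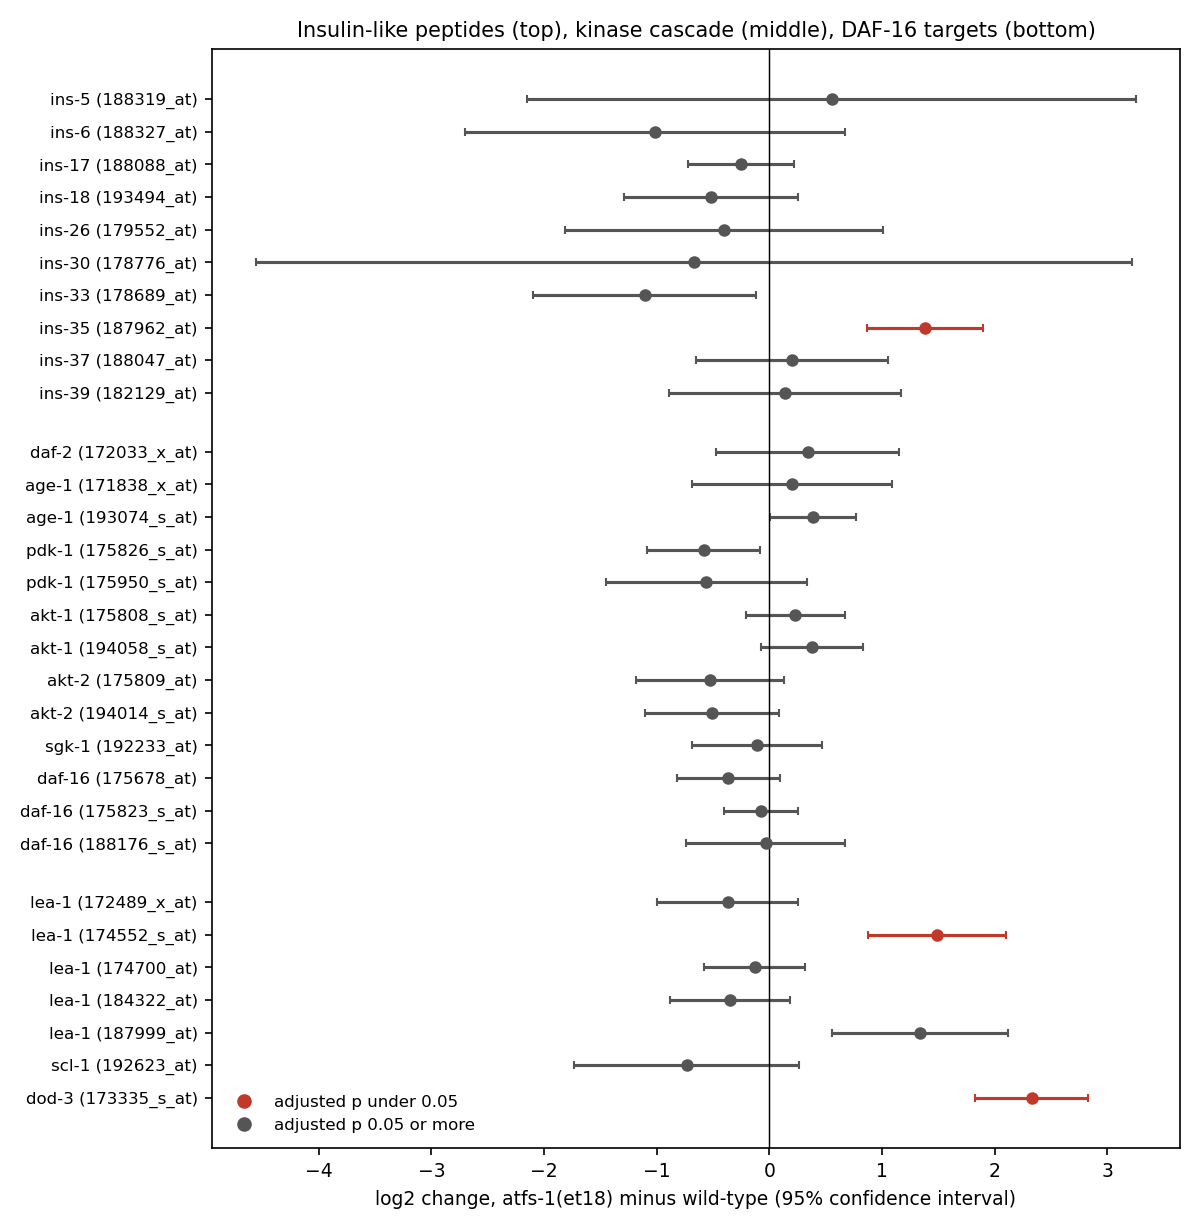
Log2 change (atfs-1(et18) minus wild-type, horizontal axis) with its 95% confidence interval for 30 of the 32 tested probe sets of the pathway, grouped as insulin-like peptides, cascade and DAF-16 targets. The red points are dod-3, ins-35 and 1 of the 5 tested lea-1 probe sets, all to the right of 0; the intervals of ins-5 and ins-30 are the widest.

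Among the insulin-like peptides, ins-35 (K02E2.4) was the one that passed the threshold. Its signals were 1881, 1049 and 1548 in atfs-1(et18) worms, against 599, 486 and 595 in wild-type worms. The lowest atfs-1(et18) array was thus well above the highest wild-type array, and every array of both genotypes was above its 40th percentile. The mean was 1493 ± 419 in atfs-1(et18) and 560 ± 63.9 in wild-type worms (SD, n = 3 each). The log2 change was 1.38 ± 0.23 (SE), with a 95% interval of 0.86 to 1.90 and a limma adjusted p of 0.0121. Over 18 alternative settings the change ran from 1.19 to 1.63 and the adjusted p from 0.00117 to 0.0714. The call ended in 3 of them, without atfs-1(et18) replicate 1 (adjusted p = 0.0657), without atfs-1(et18) replicate 3 (0.0586) and without wild-type replicate 2 (0.0714).

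The insulin-like gene ins-33 (W09C5.4) had the lowest change of those tested. Its signals were 87.2, 95.3 and 163.9 in atfs-1(et18) worms and 469.7, 180.0 and 160.8 in wild-type worms. The groups overlapped by a narrow margin, since atfs-1(et18) replicate 3 lay just above wild-type replicate 3, and wild-type replicate 1 stood far above the other arrays. Its log2 change was -1.11 ± 0.44 (SE), short of the threshold (unadjusted p = 0.0326, limma adjusted p = 0.241). The change was -0.62 to -1.39 over its alternatives.

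Peptides known as agonists of DAF-2 were dim on these arrays. INS-6, INS-4 and DAF-28 act as agonists that hold worms out of dauer, INS-3 is counted with them, and INS-7 is an agonist made in the intestine and neurons. Of these 5 genes, only ins-6 (ZK84.6) reached the level for testing. Its signals were 88.9, 19.1 and 153.9 in atfs-1(et18) and 222.6, 130.7 and 74.0 in wild-type worms, an overlapping spread with a log2 change of -1.01 ± 0.74 (SE, 95% interval -2.70 to 0.67, limma adjusted p = 0.549). The change was -0.14 without atfs-1(et18) replicate 2, -0.62 without wild-type replicate 1 and -1.65 without atfs-1(et18) replicate 3.

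The other agonist genes were mostly below the 40th percentile of the array and were not tested. The signals of ins-7 (ZK1251.2) were 42.4, 18.9 and 43.7 in atfs-1(et18) worms and 111.2, 60.6 and 51.3 in wild-type worms. Only wild-type replicate 1 was above its 40th percentile (80.7). For daf-28 (Y116F11B.1) they were 65.4, 4.12 and 46.1 in atfs-1(et18) and 77.1, 89.7 and 47.8 in wild-type worms, and for ins-4 (ZK75.1) they were 37.7, 5.56 and 25.8 in atfs-1(et18) and 55.8, 41.8 and 40.3 in wild-type worms. For ins-7 and ins-4 all atfs-1(et18) arrays were below all wild-type arrays, and the arrays of daf-28 overlapped. Such an order was found for 10.8% of all tested probe sets, and its share among untested ones was not taken. It was also found for ins-2 and for the untested daf-16 probe set 181992_s_at, so it was not particular to the agonists. The signals of ins-3 (ZK75.3) were between 1.73 and 32.9 in atfs-1(et18) and between 1.61 and 41.2 in wild-type worms, below the 40th percentile on all 6 arrays. When every probe set was fitted with no filter, the log2 changes of ins-7, daf-28, ins-4 and ins-3 were -1.10, -1.58, -1.37 and -0.66, with limma adjusted p = 0.466, 0.571, 0.530 and 0.904.

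Insulin-like peptides known as antagonists of DAF-2 signalling showed no change past the threshold. The signals of ins-18 (T28B8.2), which acts as an antagonist, were 99.7, 238.3 and 205.6 in atfs-1(et18) worms and 203.1, 239.5 and 295.2 in wild-type worms. The low value came from atfs-1(et18) replicate 1 alone, and the groups overlapped (log2 change -0.52 ± 0.34 SE, 95% interval -1.29 to 0.25, limma adjusted p = 0.494). For ins-17 (F56F3.6) they were 284.8, 240.8 and 255.2 in atfs-1(et18) and 248.9, 373.7 and 317.2 in wild-type worms, again overlapping (-0.25 ± 0.21, 95% interval -0.73 to 0.22, adjusted p = 0.610). A further pair of antagonists, ins-1 (F13B12.5) and ins-11 (C17C3.4), were not tested: ins-1 was above its 40th percentile on 1 array of each genotype, with signals of 27.9 to 90.4 in atfs-1(et18) and 35.5 to 80.3 in wild-type worms, and ins-11 on no array.

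The other tested insulin-like genes were ins-5, ins-26, ins-30, ins-37 and ins-39, with log2 changes between -0.67 and 0.55 and overlapping groups. Their intervals were wide: that of ins-30 (ZC334.2) ran from -4.56 to 3.22, on signals of 111.7, 2.84 and 187.5 in atfs-1(et18) worms and 274.5, 107.9 and 8.04 in wild-type worms. Here 1 array of each genotype was near background while the others were not, and the interval holds large changes in either direction. In all, 25 insulin-like probe sets stood for 24 genes. The gene table of assembly WBcel235 lists 39 insulin-like genes, and the other 15 were not analysed here.

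The number of insulin-like probe sets over the level used for testing differed between arrays of 1 genotype. Of the 25, the number above the 40th percentile of the array was 10, 6 and 9 in atfs-1(et18) replicates 1, 2 and 3, and 13, 12 and 7 in wild-type replicates 1, 2 and 3. The 15 that were not tested had a summed signal of 439, 227 and 525 in atfs-1(et18) worms and 774, 660 and 405 in wild-type worms, so that wild-type replicate 3 lay among the atfs-1(et18) arrays. For 8 of the 15 the lowest array was atfs-1(et18) replicate 2, and for 11 the highest was wild-type replicate 1 or 2 (5 and 6 probe sets). Without a filter, 12 of the 15 had a negative log2 change (median -0.82), where 52.9% of all 8756 untested probe sets did (median -0.06), and 0 of the 15 had an unadjusted limma p under 0.05 (5.55% of all untested probe sets did), also 0 after adjustment. Dim probe sets in general were brightest in wild-type replicate 1 as well, with a median signal of 25.5 there against 18.3 to 22.2 on the other arrays. Over all 8756 untested probe sets, wild-type replicates 1 and 2 were the highest array for 25.4% and 17%. The lowest array was atfs-1(et18) replicate 2 for 20.1% of them. Its median signal was 18.8, beside 18.3 in wild-type replicate 3.

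**Figure D2:**
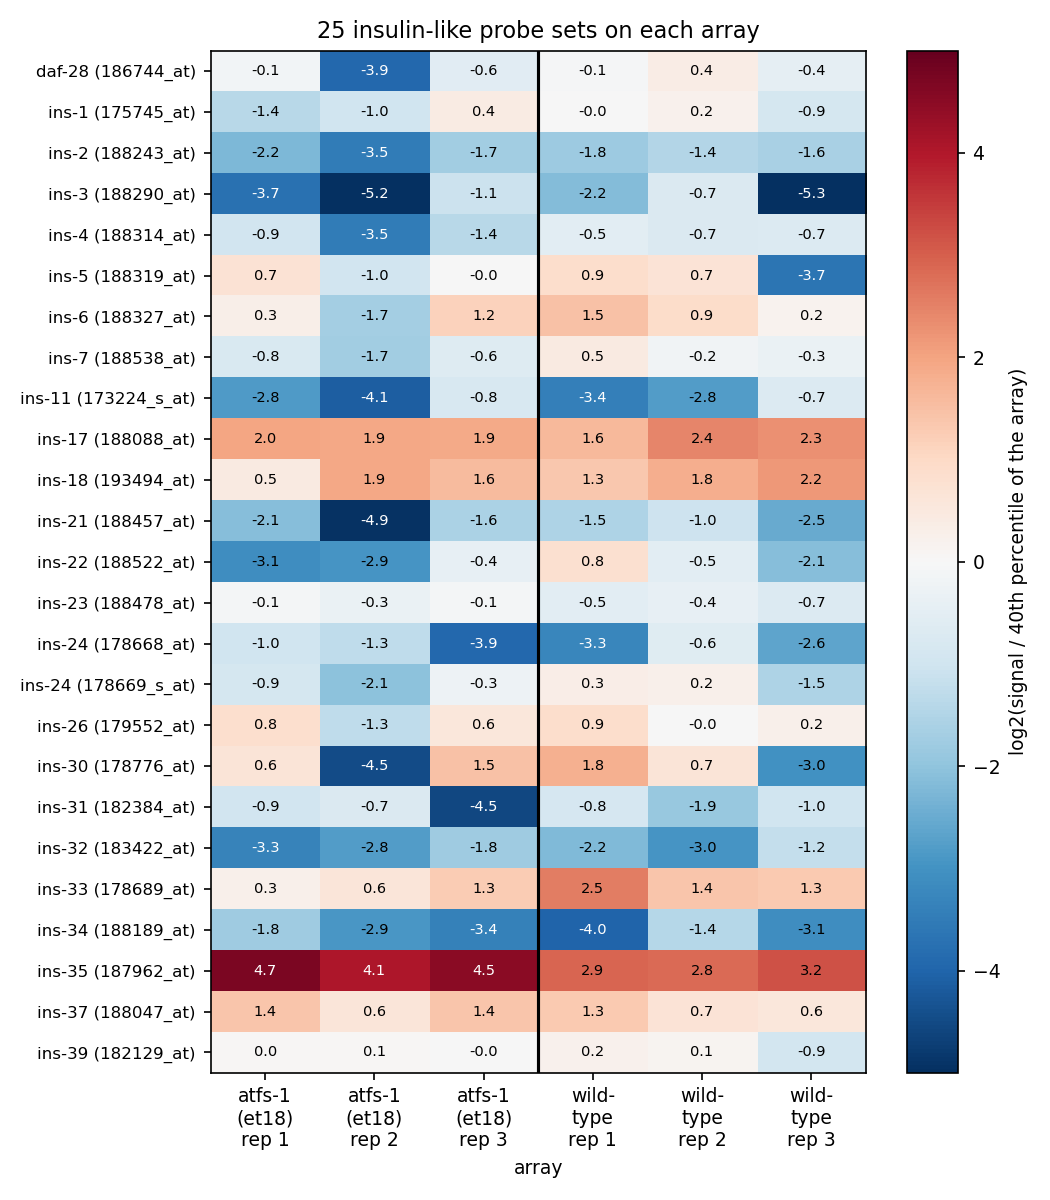
Log2 ratio of each signal to the 40th percentile of its own array (colour and printed value) for the 25 insulin-like probe sets, with the 3 atfs-1(et18) arrays left of the line and the 3 wild-type arrays right of it. Red cells are above that level and blue cells below it; ins-35 is the most strongly red row, and blue cells are most frequent in atfs-1(et18) replicate 2.

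Many of these genes stand side by side in the genome. In the WBcel235 gene order, ins-2, ins-3, ins-4, ins-5 and ins-6 follow each other with 0 protein-coding genes between them, as do ins-21, ins-22 and ins-23, and ins-24, ins-30 and ins-26. In the first run, 4 of the 5 genes had a negative log2 change without a filter (-0.66 to -1.37) and ins-5 had 0.55. In the second run ins-21 and ins-22 had -1.26 and -1.61, and ins-23 had 0.29, with signals of 67.6, 49.5 and 63.3 in atfs-1(et18) and 56.3, 51.6 and 40.01 in wild-type worms. In the third run ins-30 and ins-26 had -0.67 and -0.40, and ins-24 had 0.03 and -0.82 on its probe sets. The sign of ins-5 turned in 2 of its alternatives. None of these genes passed the limma threshold with no filter. The other dim genes, ins-1, ins-11, ins-31, ins-32 and ins-34, had changes between -0.90 and 0.10 without a filter.

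Markers of the neurons, where many insulin-like genes are expressed, did not pass the threshold. Of 14 listed neuronal genes 13 were tested, 11 had a negative change, the median log2 change was -0.40, and limma called 0 (4.06% of all tested genes). At an unadjusted limma p under 0.05 there were 4 of the 13, where 17.2% of all tested probe sets were. A positive change was found for 49.1% of all tested probe sets. The summed signal of the 13 was 10130 to 10410 in atfs-1(et18) worms and 10740 to 11920 in wild-type worms, with no overlap and no marker at 0. The synaptic vesicle GTPase gene rab-3 had signals of 505, 457 and 513 in atfs-1(et18) and 651, 678 and 770 in wild-type worms (log2 change -0.51 ± 0.16 SE, limma adjusted p = 0.138). The synaptobrevin gene snb-1 lay the other way without overlap, with 4272, 3726 and 4099 in atfs-1(et18) and 3546, 3240 and 3269 in wild-type worms (0.27 ± 0.13, adjusted p = 0.342), as did unc-10, which encodes a RIM-type active zone protein (0.24 ± 0.25, adjusted p = 0.703). Of 8 body wall muscle markers tested, 8 had a negative change and 0 were called. At an unadjusted limma p under 0.05 there were 3 of the 8, beside the same 17.2% of all tested probe sets. The smallest adjusted p was that of unc-22 (limma, 0.0501), which was called in 7 of 18 alternatives. The summed signal of the 8 muscle markers was 56260 to 62340 in atfs-1(et18) against 68900 to 70170 in wild-type worms. In RNA of whole worms, fewer cells of a type and less RNA per cell cannot be told apart. The part of these marker values in the insulin-like values was not tested.

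Genes for making and releasing insulin-like peptides were not called. This list shares egl-3, egl-21 and ida-1, each with a negative change, with the neuronal markers above. Of 12 listed, 11 were tested, with 4 positive and 7 negative changes and a median of -0.18, and limma called 0 (0 at an unadjusted p under 0.05, 2.69% and 1.37% of all tested genes being called upward and downward, 4.06% in all). The smallest p belonged to hid-1, which acts in dense-core vesicle formation, at -0.46 ± 0.21 (SE, adjusted p = 0.312), and to sbt-1, which encodes the 7B2-like partner of the proprotein convertase EGL-3, at -0.36 ± 0.17 (adjusted p = 0.315).

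No gene of the cascade from the receptor to DAF-16 passed the threshold in either direction. The cascade had 22 probe sets, of which 15 were tested, covering all 8 genes. Of the 15, limma called 0, with 3 upward and 1 downward at an unadjusted p under 0.05 (17.2% of all tested probe sets in either direction), and the median log2 change was -0.03. The arrays did not overlap for 3 higher and 2 lower probe sets of the 15, where 12.5% and 10.8% of all tested probe sets did not.

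For the receptor gene daf-2 (Y55D5A.5), 1 of 4 probe sets was tested. It gave 77.9, 91.0 and 65.9 in atfs-1(et18) worms and 49.2, 71.6 and 65.3 in wild-type worms, close to the 40th percentile on each array. The log2 change was 0.34 ± 0.36 (SE, 95% interval -0.47 to 1.15, limma adjusted p = 0.699). The other 3 daf-2 probe sets had signals of 1.51 to 26.8 and were below the 40th percentile on all 6 arrays.

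The gene of the phosphoinositide 3-kinase catalytic subunit, age-1 (B0334.8), had a positive change on both of its probe sets, neither past the adjusted threshold. On 193074_s_at the signals were 438, 382 and 414 in atfs-1(et18) and 337, 284 and 323 in wild-type worms. All atfs-1(et18) arrays were higher, by a log2 change of 0.39 ± 0.17 (SE, unadjusted p = 0.0488, limma adjusted p = 0.288, 0.0609 to 0.593 over its alternatives). On 171838_x_at the change was 0.20 ± 0.39 with overlapping groups (adjusted p = 0.851).

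The kinase gene pdk-1 (H42K12.1), which acts between AGE-1 and the AKT kinases, had negative changes that did not pass the adjusted threshold. On 175826_s_at the signals were 205.5, 144.5 and 150.5 in atfs-1(et18) and 223.1, 262.6 and 257.2 in wild-type worms, without overlap. The log2 change was -0.58 ± 0.22 (SE, 95% interval -1.09 to -0.08, unadjusted p = 0.0273, limma adjusted p = 0.221, 0.138 to 0.499 over its alternatives). A second tested probe set, 175950_s_at, gave 85.0, 67.5 and 42.0 in atfs-1(et18) and 120.1, 81.6 and 79.0 in wild-type worms. There the groups overlapped, at a like size of -0.56 ± 0.39 (adjusted p = 0.527), and the other 3 pdk-1 probe sets were below the 40th percentile on all arrays.

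The AKT kinase genes, whose products phosphorylate DAF-16, had changes of opposite sign that did not pass the threshold. For akt-1 (C12D8.10), probe set 175808_s_at gave 1238, 1639 and 1830 in atfs-1(et18) and 1106, 1459 and 1428 in wild-type worms, and 194058_s_at gave 668, 520 and 727 in atfs-1(et18) and 591, 436 and 448 in wild-type worms. Both overlapped, with log2 changes of 0.23 ± 0.19 and 0.38 ± 0.20 (SE, limma adjusted p = 0.619 and 0.387). For akt-2 (F28H6.1), probe set 194014_s_at gave 112.2, 80.5 and 93.0 in atfs-1(et18) against 141.1, 136.4 and 125.7 in wild-type worms, and 175809_at gave 207.0, 257.0 and 200.7 in atfs-1(et18) against 224.0, 295.4 and 483.9 in wild-type worms. The first did not overlap and the second did, with changes of -0.51 ± 0.26 and -0.53 ± 0.29 (adjusted p = 0.372 and 0.403).

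The gene of the related kinase SGK-1 (W10G6.2) had signals of 918, 968 and 730 in atfs-1(et18) and 719, 820 and 1378 in wild-type worms. Wild-type replicate 3 was the highest array and the groups overlapped (log2 change -0.11 ± 0.25 SE, 95% interval -0.68 to 0.47, limma adjusted p = 0.878).

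The transcript of the FOXO factor daf-16 (R13H8.1) did not pass the threshold on any probe set, and on 175823_s_at the genotypes were close. On this one the signals were 1217, 1337 and 1155 in atfs-1(et18) worms and 1199, 1327 and 1384 in wild-type worms. The log2 change was -0.08 ± 0.14 (SE) with a 95% interval of -0.40 to 0.25 (limma adjusted p = 0.847). On 175678_at they were 410, 378 and 332 in atfs-1(et18) and 451, 405 and 603 in wild-type worms, overlapping by a narrow margin (-0.37 ± 0.20, adjusted p = 0.405). On 188176_s_at they were 233, 419 and 333 in atfs-1(et18) and 488, 241 and 297 in wild-type worms (-0.03 ± 0.31, adjusted p = 0.972). The fourth probe set, 181992_s_at, was not tested, with 56.6, 26.4 and 52.8 in atfs-1(et18) and 90.2, 64.6 and 69.8 in wild-type worms. The gene makes several isoforms, and which of them each probe set reads is not given in the sources used here.

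**Figure D3:**
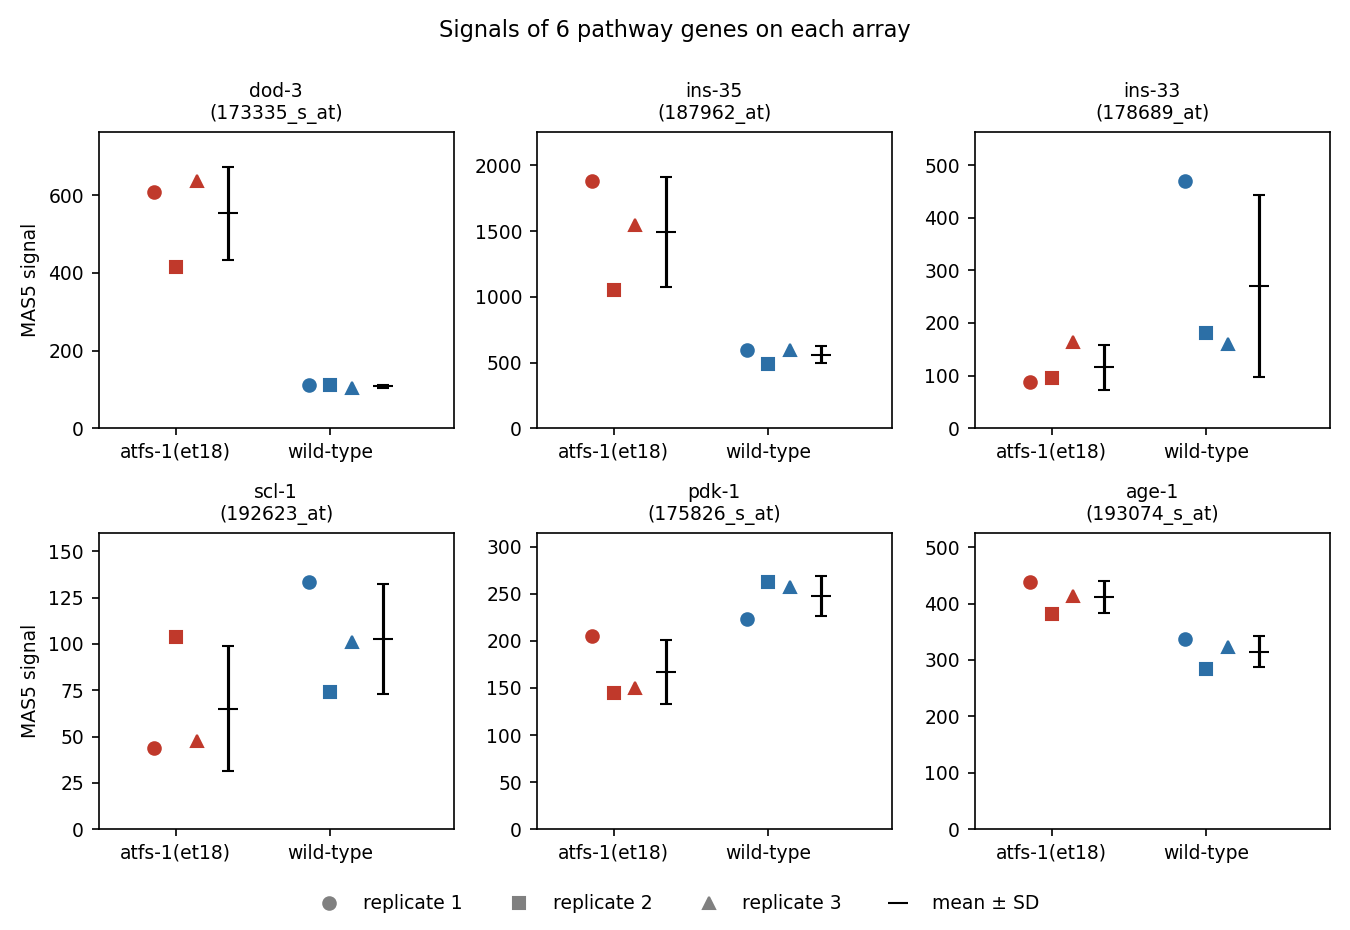
MAS5 signal (vertical axis, from 0, own scale per panel) on each array for dod-3, ins-35, ins-33, scl-1, pdk-1 and age-1, with the mean and SD of 3 arrays beside the points. For each gene the tested probe set with the smallest p is drawn. On these the groups are separate for dod-3, ins-35, pdk-1 and age-1, and they overlap for ins-33 and scl-1. On the other tested probe set of pdk-1 (175950_s_at) and of age-1 (171838_x_at), not drawn, the groups overlap. Of these genes dod-3 and ins-35 passed the adjusted threshold.

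Other components that act beside the cascade were read from lists of signalling and DAF-16 cofactor genes. Of all tested genes limma called 4.06%, and 17.2% of all tested probe sets had an unadjusted p under 0.05. Among 12 tested of 19 signalling components (TOR, RAS and AMPK branches and adaptor genes), limma called 0 (1 at an unadjusted p under 0.05), with 6 positive and 6 negative changes and a median of -0.002. The one was rheb-1, which encodes a small GTPase that activates TOR, with signals of 513, 580 and 485 in atfs-1(et18) and 263, 326 and 380 in wild-type worms (log2 change 0.72 ± 0.19 SE, adjusted p = 0.0911). Of 20 partners and modifiers of DAF-16, 16 were tested and 0 called (4 at an unadjusted p under 0.05), with a median of -0.08. The smallest p there belonged to pqm-1, a zinc finger factor whose nuclear presence alternates with that of DAF-16, with 1575, 1988 and 1237 in atfs-1(et18) and 470, 847 and 1055 in wild-type worms. Its arrays did not overlap, and its change of 1.07 ± 0.30 had an adjusted p of 0.107 (0.0267 to 0.305 over its alternatives). The arginine methyltransferase gene prmt-1, which modifies DAF-16, had -0.57 ± 0.17 (adjusted p = 0.126).

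In the dauer pathways that run beside insulin signalling, 1 of 10 tested genes fell and 0 rose (14 were listed, median -0.25), where 1.37% of all tested genes fell and 2.69% rose. This was daf-5, which encodes a Sno/Ski-type cofactor at the end of the TGF-beta dauer branch. Its signals were 181, 311 and 454 in atfs-1(et18) and 733, 957 and 771 in wild-type worms, with no overlap. It fell by 1.47 on the log2 scale (SE 0.31, limma adjusted p = 0.0366), on a probe set of the _x_at kind, which may cross-hybridise. The call was lost in 5 of 17 alternatives (adjusted p up to 0.167).

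Of the 3 DAF-16-regulated genes of the pathway set, dod-3 (C24B9.9), named as downstream of DAF-16, had the largest change. Its signals were 608, 415 and 636 in atfs-1(et18) worms and 110.5, 110.1 and 104.1 in wild-type worms. The wild-type arrays lay within a few units of each other and every atfs-1(et18) array was far above them. The means were 553 ± 120 in atfs-1(et18) and 108.2 ± 3.61 in wild-type worms (SD, n = 3 each), and the log2 change was 2.33 ± 0.22 (SE, 95% interval 1.83 to 2.83, limma adjusted p = 0.000843). The call held in all 17 alternatives it entered, with changes of 1.82 to 2.52 and adjusted p up to 0.0117; its probe set ends in _s_at, the mark of probe sets that can bind several transcripts, and so was absent from the setting that leaves these out.

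For scl-1 (F49E11.9), which encodes a secreted protein of the cysteine-rich SCP family known to be needed for the long life of daf-2 mutants, the signals were 43.8, 103.8 and 47.7 in atfs-1(et18) and 133.4, 74.0 and 100.9 in wild-type worms. The groups overlapped because of atfs-1(et18) replicate 2, the only atfs-1(et18) array above its 40th percentile. The log2 change was -0.73 ± 0.44 (SE, 95% interval -1.73 to 0.26, limma adjusted p = 0.450).

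The 6 probe sets of lea-1 (K08H10.1) fell into a pair that was higher in atfs-1(et18) worms and 3 that were not, with 1 too dim to test. On 174552_s_at the signals were 756, 627 and 846 in atfs-1(et18) and 397, 231 and 198 in wild-type worms, and on 187999_at they were 261, 269 and 353 in atfs-1(et18) and 199, 89.1 and 86.2 in wild-type worms. On both, every atfs-1(et18) array was above every wild-type array, and wild-type replicate 1 was the highest of its genotype. The log2 changes were 1.49 ± 0.27 (SE, limma adjusted p = 0.0192) and 1.34 ± 0.34 (adjusted p = 0.0775). The first call ended in 4 of 17 alternatives, each of which left out 1 array: atfs-1(et18) replicate 1 (0.101) or 3 (0.0821), or wild-type replicate 2 (0.0974) or 3 (0.0578). The second passed in 4 of 18, with quantile normalization (adjusted p = 0.0442), with array weights (0.00520), without wild-type replicate 1 (0.00509) and without both wild-type replicate 1 and atfs-1(et18) replicate 3 (0.0161), over a range of 0.00509 to 0.268.

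The other 3 tested lea-1 probe sets had negative changes that did not pass the threshold. On 174700_at the signals were 1979, 1597 and 2685 in atfs-1(et18) and 2363, 2233 and 2106 in wild-type worms, overlapping, with a log2 change of -0.13 ± 0.20 (SE, 95% interval -0.58 to 0.32, limma adjusted p = 0.804). On 184322_at and 172489_x_at the changes were -0.35 ± 0.23 and -0.37 ± 0.27 (adjusted p = 0.507 and 0.560). The ratio of the pair that was higher to these 3, taken within each array as a difference of mean log2 signals, was -1.13, -0.94 and -1.07 in atfs-1(et18) and -2.44, -2.87 and -2.91 in wild-type worms. It was thus higher by 1.70 on the log2 scale in atfs-1(et18) worms, with no overlap. An exact two-sided permutation test over the arrays gave p = 0.1, the smallest that 3 against 3 allows. The probe sets were put into the pair and the 3 by their direction, so this ratio describes the size of their disagreement and is not a further test of it. By the same grouping, each of the 6 single ratios had to change upward. They did so by 1.47 to 1.86. Which exons or isoforms these probe sets read is not given in the sources used here.

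**Figure D4:**
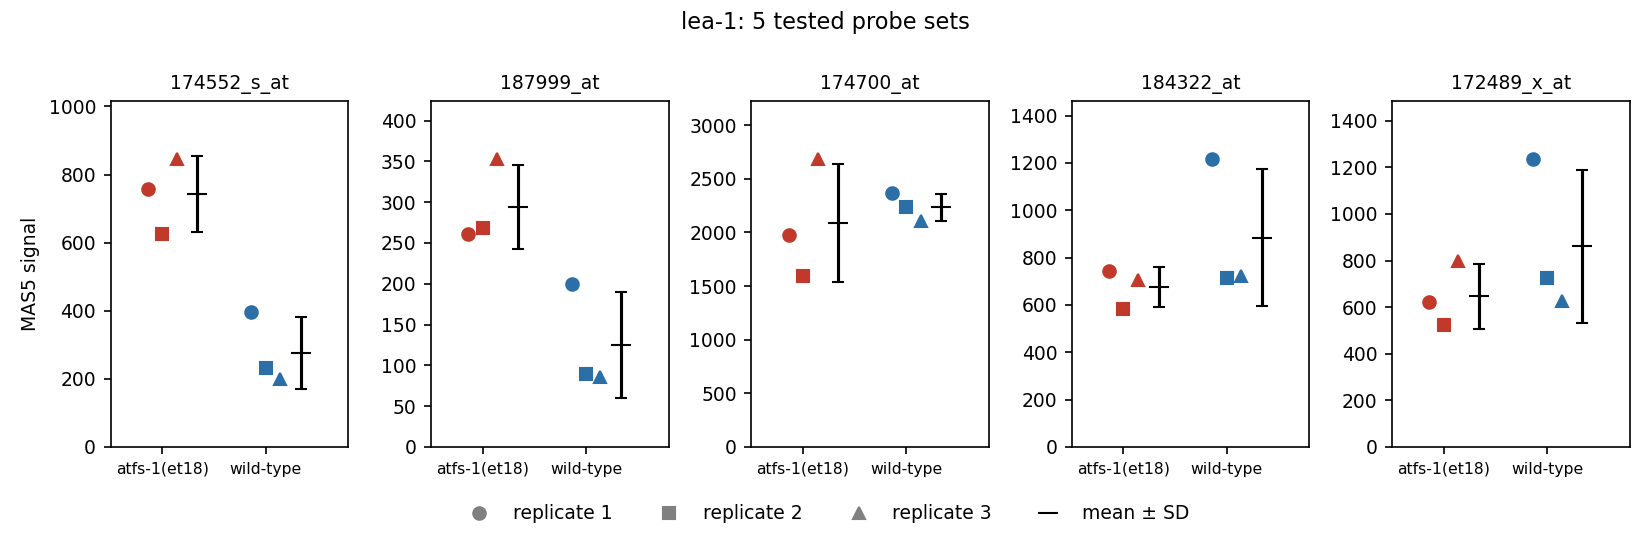
MAS5 signal (vertical axis, from 0, own scale per panel) of the 5 tested lea-1 probe sets on each array, with mean and SD of 3 arrays. On 174552_s_at and 187999_at the atfs-1(et18) arrays all lie above the wild-type arrays, and on the other 3 probe sets the groups overlap.

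Further genes known as DAF-16 targets did not move as 1 block. Of 24 genes listed as higher in daf-2 mutants in earlier work, 18 were tested: 2 rose and 0 fell (2.69% and 1.37% of all tested genes did), with 11 positive changes and a median of 0.29, beside 0.005 over all tested genes. The 2 were sip-1, a small heat shock protein gene, with signals of 4398, 4073 and 5492 in atfs-1(et18) and 1869, 1155 and 1118 in wild-type worms (log2 change 1.78 ± 0.22 SE, limma adjusted p = 0.00343), and the ferritin gene ftn-1 (1.19 ± 0.18, adjusted p = 0.00751). Both calls held in all 17 alternatives they entered. Their probe sets end in _s_at, so both were absent from the setting that leaves such probe sets out. The mitochondrial superoxide dismutase gene sod-3, a common readout of DAF-16, had 238.5, 125.2 and 292.6 in atfs-1(et18) and 101.5, 107.0 and 86.0 in wild-type worms. These arrays did not overlap, and its change of 1.08 ± 0.34 had an adjusted p of 0.143. The lysozyme gene lys-7 lay the other way, with 439, 127 and 448 in atfs-1(et18) and 2014, 802 and 576 in wild-type worms (-1.74 ± 0.57, adjusted p = 0.159).

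Genes listed as lower in daf-2 mutants went both ways. Of 14 listed, 9 were tested, and 1 rose and 3 fell (median -0.14), where 2.69% of all tested genes rose and 1.37% fell. The gene dod-22, which encodes a CUB-like domain protein, rose 3.68-fold, with 958, 1088 and 668 in atfs-1(et18) and 156, 225 and 396 in wild-type worms (limma adjusted p = 0.0180); this was lost in 3 of 18 alternatives (adjusted p up to 0.0991). The gene dod-24 of the same list had 8922, 9483 and 6498 in atfs-1(et18) and 1615, 3128 and 4732 in wild-type worms, again without overlap. Its change of 1.51 ± 0.35 had an adjusted p of 0.0520 and was called in 9 of 17 alternatives (0.00631 to 0.208). The yolk protein gene vit-5 fell by 4.37 on the log2 scale and vit-2 fell by 2.25 (limma adjusted p = 0.00189 and 0.0152). The gene fat-7, which encodes a stearoyl-CoA desaturase and whose place in this list is the least certain, fell by 1.37 (adjusted p = 0.0345). The 3 that fell were thus the yolk genes vit-2 and vit-5, and fat-7. All 4 yolk genes tested, with vit-4 and vit-6 beside these, were lower. Their summed signal was 894 to 1521 in atfs-1(et18) and 6221 to 10520 in wild-type worms. The probe sets of vit-4 and vit-5 are of the _x_at kind, which may cross-hybridise, and that of vit-6 ends in _s_at. The readings of the 4 may therefore not be separate. For vit-2 the call was lost in 3 of 18 alternatives (adjusted p up to 0.0900), and for fat-7 in 7 of 18 (up to 0.145).

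**Figure D5:**
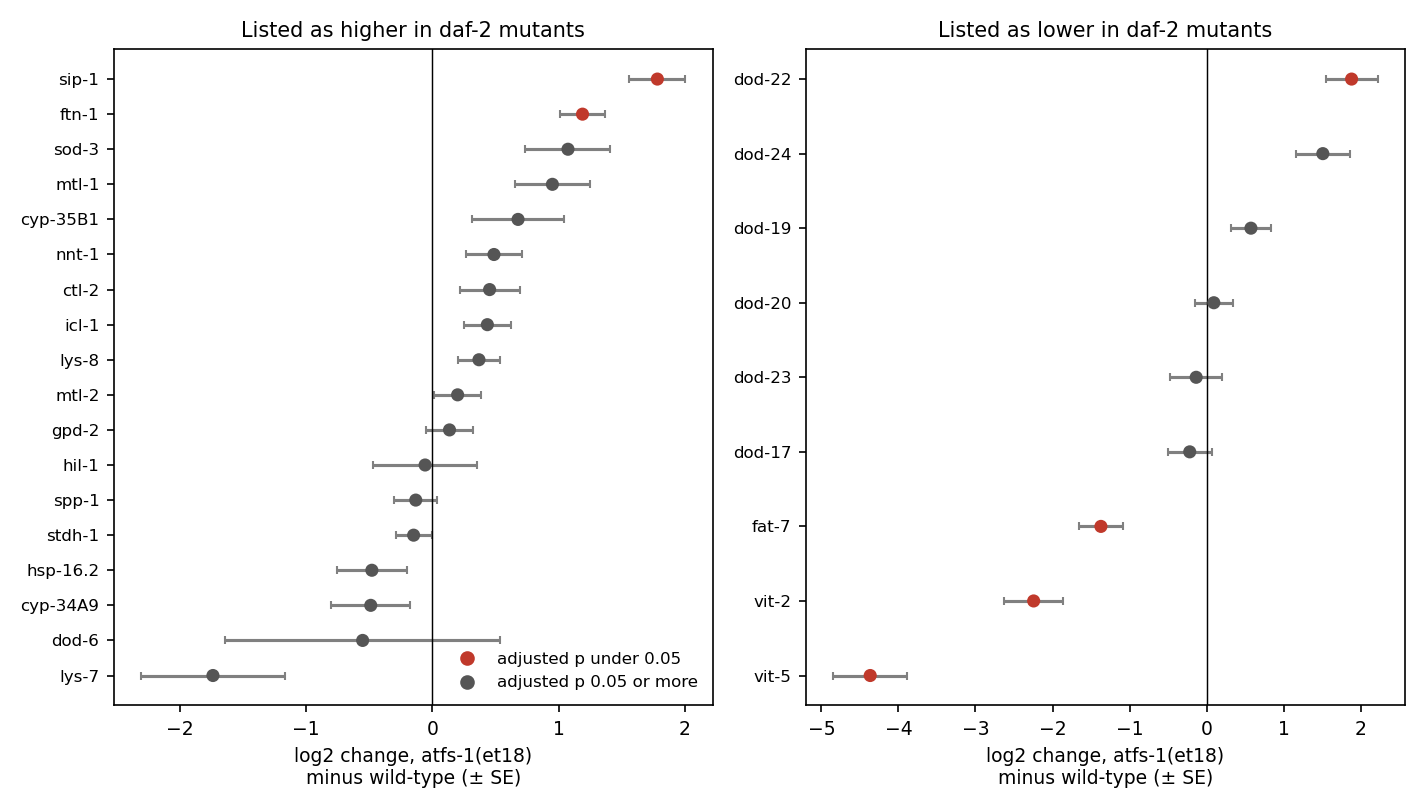
Log2 change (atfs-1(et18) minus wild-type, horizontal axis) with its SE for the tested genes of the lists of DAF-16 targets, 18 listed as higher (left panel) and 9 listed as lower in daf-2 mutants (right panel). Red points passed the adjusted threshold: sip-1 and ftn-1 on the left, and dod-22, fat-7, vit-2 and vit-5 on the right; both panels have points on each side of 0.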

How the data were processed

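Per the labels' protocols, biotin-labelled RNA of 6 samples, 3 per genotype, was read on Affymetrix worm arrays. Per the submitters' processing notes, the authors' intensity values come from MAS5, whose version is not given in the sources used here, nor its scaling target or detection calls. Every array had the same mean after trimming 2% at each end. Since MAS5 takes off background and mismatch signal, dim probe sets have uncertain ratios. Signals were put on the log2 scale unscaled and without offset. Leaving out 77 controls, 22548 probe sets stayed, of which 13792 were tested (at least 3 arrays over their 40th percentile). Symbols came from the platform annotation, updated through gene identifiers (20701 matched, 65 kept); 887 probe sets with several symbols were not named. In gene lists, a gene is its brightest tested probe set (10613 genes). No coordinates are given because no genome build is named.

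The contrast was atfs-1(et18) minus wild-type in limma 3.58.1 (R 4.3.3), with lmFit and with eBayes under an intensity trend. Two-sided p-values were adjusted by Benjamini-Hochberg across all 13792 probe sets. The procedure was also run on simulated data with independent noise for each probe set and array. Those data hold no shift shared by the probe sets of an array, so they do not show how it behaves under one. Genes were named by rule: the cascade genes and DAF-16-regulated members, insulin-like genes called or with an unadjusted p under 0.05, known agonists and antagonists, and of each other list up to 4 called genes or up to 2 with the smallest p; sod-3, lys-7, snb-1, unc-10 and dod-24 were added after their values were seen. The values of 1 cascade gene, with 2 tested probe sets, are not reported here, although counts over the pathway include them. The members and lists were chosen with earlier results of these data known. Alternatives were 2 scalings, offsets of 16 and 64, no filter and the 60th percentile, a variance prior with no trend and a robust one, a replicate block, array weights, leaving out _s_at and _x_at probe sets (able to bind several transcripts), and leaving out each array; 1 more, leaving out both arrays with the highest germline levels, was chosen after seeing the data. Plots were made in Python 3.11.15 (matplotlib 3.10.9).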

Additional observations from a re-analysis of the deposited data

How the results depend on the processing

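Among the pathway's probe sets 3 calls were made; 5 were made with array weights, 1 without _s_at and _x_at probe sets (which removes dod-3 and the called lea-1 probe set) and 1 to 4 when 1 array was left out. In the other pathway lists 7 calls became 15, 4 and 3 to 8 under the same settings, and over all probe sets 542 became 1637, 313 and 202 to 871, with 336 under the replicate block. Under the replicate block the pathway's calls numbered 3. Deviations of same-numbered samples correlated at 0.17, 0.18 and -0.40, and not every sample correlated best with its own number. These 3 correlations are too few to decide whether the replicate numbers pair the samples. Of 549 combinations of a tested member probe set and an alternative, 519 kept direction and side of the threshold, 7 lost a call, 5 gained one and 18 changed sign, none of them a called value.

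The sign of the log2 change turned with array weights for daf-16 on 188176_s_at (0.0051), ins-30 (0.12) and ins-26 (0.26), and with an offset of 64 for ins-5 (-0.042). Leaving out arrays (1 at a time, or both wild-type replicate 1 and atfs-1(et18) replicate 3) turned it for 10 probe sets, over ranges of -0.25 to 0.26 for daf-16 (188176_s_at), -0.019 to 0.39 for akt-1 (175808_s_at), -2.14 to 1.22 for ins-30, -0.84 to 0.31 for ins-26, -0.99 to 1.43 for ins-5, -0.33 to 0.047 for lea-1 (174700_at), -0.30 to 0.17 for sgk-1, -0.067 to 0.51 for age-1 (171838_x_at), -0.0035 to 0.53 for ins-37 and -0.29 to 0.45 for ins-39. Without both of those arrays the pathway had 4 calls. The cause was not tested. Signals near background limit what can be said of the 14 insulin-like genes with no tested probe set.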
